A study of Mus musculus with 23 samples.

Results

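The 6 mature microRNAs (miRNAs) of the miR-26 and miR-101 families described here were measured in mouse liver: mmu-miR-26a-5p, mmu-miR-26b-5p, mmu-miR-26b-3p, mmu-miR-101a-3p, mmu-miR-101a-5p and mmu-miR-101b-3p. They were chosen by name and were 6 of the 1218 mature miRNAs in the count table. All 6 passed the filter on low counts, as did 386 miRNAs in all. Small RNA was sequenced from the livers of 23 third-generation male C57bl/6J mice, with 1 library per mouse, and the mice were killed while fasting. The reference group (libraries 1 to 8, n = 8) came from the control lineage, whose diet carried high oleic sunflower oil over 3 generations, and was then fed a low-fat diet. The HFoleic group (libraries 9 to 15 and 23, n = 8) came from the same control lineage and was fed a high-fat, high-sucrose diet. The HFepa group (libraries 16 to 22, n = 7) ate that same obesogenic diet but came from the omega 3 lineage, whose diet carried fish oil rich in eicosapentaenoic acid. No group combined the omega 3 lineage with the low-fat diet, so an effect of the lineage could be read only on the obesogenic diet.

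A mature miRNA guides the Argonaute protein to messenger RNAs, mostly through its seed, bases 2 to 8 from its 5′ end, and represses them. A miRNA hairpin yields a 5p and a 3p strand, of which 1 usually accumulates and the other is mostly degraded. The miR-26 and miR-101 families are abundant in the adult liver and are known for restraining the growth of liver cells. Messenger RNAs that both families are known to repress include Ezh2, the methyltransferase of the Polycomb complex that places the repressive mark on lysine 27 of histone H3. miR-26a is also known for raising insulin sensitivity and restraining glucose production in the liver of obese mice.

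The mature sequences are shown because their differences decide which miRNAs share a seed and which can share reads. They were taken from RefSeq (GRCm38.p6), 5′ to 3′, with the seed in capitals.
mmu-miR-26a-5p: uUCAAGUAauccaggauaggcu
mmu-miR-26b-5p: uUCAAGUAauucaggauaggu
mmu-miR-26b-3p: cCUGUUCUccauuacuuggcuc
mmu-miR-101a-3p: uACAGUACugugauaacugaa
mmu-miR-101b-3p: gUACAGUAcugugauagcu
mmu-miR-101a-5p: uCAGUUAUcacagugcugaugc
mmu-miR-101c: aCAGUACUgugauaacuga

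The 5p strands of miR-26 shared 1 seed, and no other of the 1045 listed miRNAs with a RefSeq sequence held it. Over their 21 aligned bases they differed by the substitutions C11U and C21U, with positions counted from the 5′ end of mmu-miR-26a-5p. The annotated mmu-miR-101b-3p started 1 base earlier than mmu-miR-101a-3p, so bases 2 to 8 were shifted and the seeds differed although only 1 of 18 aligned bases differed. That substitution was A16G, counted from the 5′ end of mmu-miR-101a-3p. The 19 bases of mmu-miR-101c lay inside mmu-miR-101a-3p with 0 substitutions, and the counts of those 2 miRNAs were uncertain where reads could be shared. The authors' alignment allowed mismatches, and whether reads were shared between other members that differ by few bases was not tested. mmu-miR-101c averaged 14.2 CPM (read counts scaled to a library total of 1000000) against 5881 CPM for mmu-miR-101a-3p.

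The hairpins lay at 5 places of GRCm38. Mir26b lay at chr1:74394310-74394394 on the plus strand, in an intron of Ctdsp1, and held mmu-miR-26b-5p and mmu-miR-26b-3p. mmu-miR-26a-5p came from 2 hairpins whose mature sequence is identical, so its count could not be divided between them. Mir26a-1 lay at chr9:119031796-119031885 on the plus strand, in an intron of Ctdspl. Mir26a-2 lay at chr10:126995530-126995613 on the plus strand of Ctdsp2, where some transcripts have an exon. The 3 host genes encode related small phosphatases that act on the tail of RNA polymerase II. Mir101a lay at chr4:101346945-101347027 on the minus strand, in an exon of the long noncoding RNA E130102H24Rik, and Mir101b lay at chr19:29135279-29135375 on the plus strand, in an intron of Rcl1.

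Sites opposite these seeds were looked for in the longest annotated 3′ untranslated region of Ezh2 (402 bases, minus strand of chromosome 6, GRCm38), on the strand of the messenger RNA. They are shown because Ezh2 is the target that the families have in common. The match is in capitals.
Ezh2, match to the seed of mmu-miR-26a-5p and mmu-miR-26b-5p, chr6:47530287-47530293: ttgaataaagaaTACTTGAac
Ezh2, first match to the seed of mmu-miR-101a-3p, chr6:47530476-47530482: caggaaccttgaGTACTGTgg
Ezh2, second match to the seed of mmu-miR-101a-3p, chr6:47530421-47530427: tgaatttgcaaaGTACTGTaa
Ezh2, match to the seed of mmu-miR-101b-3p, chr6:47530420-47530426: gaatttgcaaagTACTGTAac
The miR-26 match TACTTGA occurred once, and 2.85% of 15295 windows of the same length at the start of annotated 3′ untranslated regions held it. The match GTACTGT of mmu-miR-101a-3p occurred at 2 places, and 2.71% of those windows held at least 1. The match TACTGTA of mmu-miR-101b-3p occurred once, overlapping the second of these by 6 bases, and 3.33% of the windows held it. These matches describe letters only, and the messenger RNA of Ezh2 was not analysed here.

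Library totals were 5242218 to 8139344 counts in reference, 4340903 to 7220112 in HFoleic and 3725432 to 4947990 in HFepa. The hepatocyte miRNAs fixed as markers (mmu-miR-122-5p, mmu-miR-192-5p and mmu-miR-194-5p) summed to 206900 CPM or more in 22 libraries and to 112900 CPM in reference library 3. That library also held the highest sums of the stellate cell and fibroblast list (42100 CPM against 19760 to 33070 in the others), the biliary epithelium list (1094 CPM against 150.8 to 333.2) and the leukocyte list (2923 CPM against 1192 to 2144). Reference library 5 held 2021 CPM of pancreas miRNAs and reference library 4 held 215 CPM of muscle and heart miRNAs, the highest of all libraries. Results are therefore also given without these libraries. In a piece of tissue, fewer cells of a type and less of a miRNA per cell cannot be told apart. Library numbers ran with the groups, since every reference library had a number from 1 to 8 and every HFepa library one from 16 to 22.

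mmu-miR-26a-5p was the most abundant member by far. It ranked 6th of the 1218 miRNAs with a mean of 40740 CPM, just below mmu-miR-21a-5p and above mmu-miR-10a-5p, and took 4.02% of all counts. mmu-miR-26b-5p ranked 18th with 9926 CPM, mmu-miR-101a-3p 26th with 5881 CPM and mmu-miR-101b-3p 31st with 3346 CPM. The other strands were scarce: mmu-miR-26b-3p ranked 167th with 49.1 CPM and mmu-miR-101a-5p 210th with 22.9 CPM. The 6 together took between 5.30% and 6.95% of the counts of a library. Libraries prepared by adapter ligation do not recover all sequences equally well, so the order of levels is one of counts.

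The remaining strands of these hairpins were near the limit of detection. mmu-miR-26a-2-3p averaged 3.62 CPM, mmu-miR-101b-5p 0.559 CPM (0 to 8 counts per library) and mmu-miR-26a-1-3p 0.324 CPM (0 to 6 counts per library). Only mmu-miR-26a-2-3p and mmu-miR-101c of these 4 relatives passed the filter, and neither passed the test in any comparison (lowest adjusted p = 0.281 by edgeR, for mmu-miR-101c in HFoleic vs. reference).

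The spread between mice of a group differed among the abundant strands. The standard deviation of log2 CPM within groups was 0.133 for mmu-miR-26a-5p, and 20 of the 386 tested miRNAs had a smaller one. It was 0.160 for mmu-miR-26b-5p, 0.160 for mmu-miR-101a-3p and 0.244 for mmu-miR-101b-3p, against a median of 0.196 over the 53 miRNAs with at least 1000 CPM. It was 0.215 for mmu-miR-26b-3p and 0.256 for mmu-miR-101a-5p, against a median of 0.334 over all 386.

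**Figure D1:**
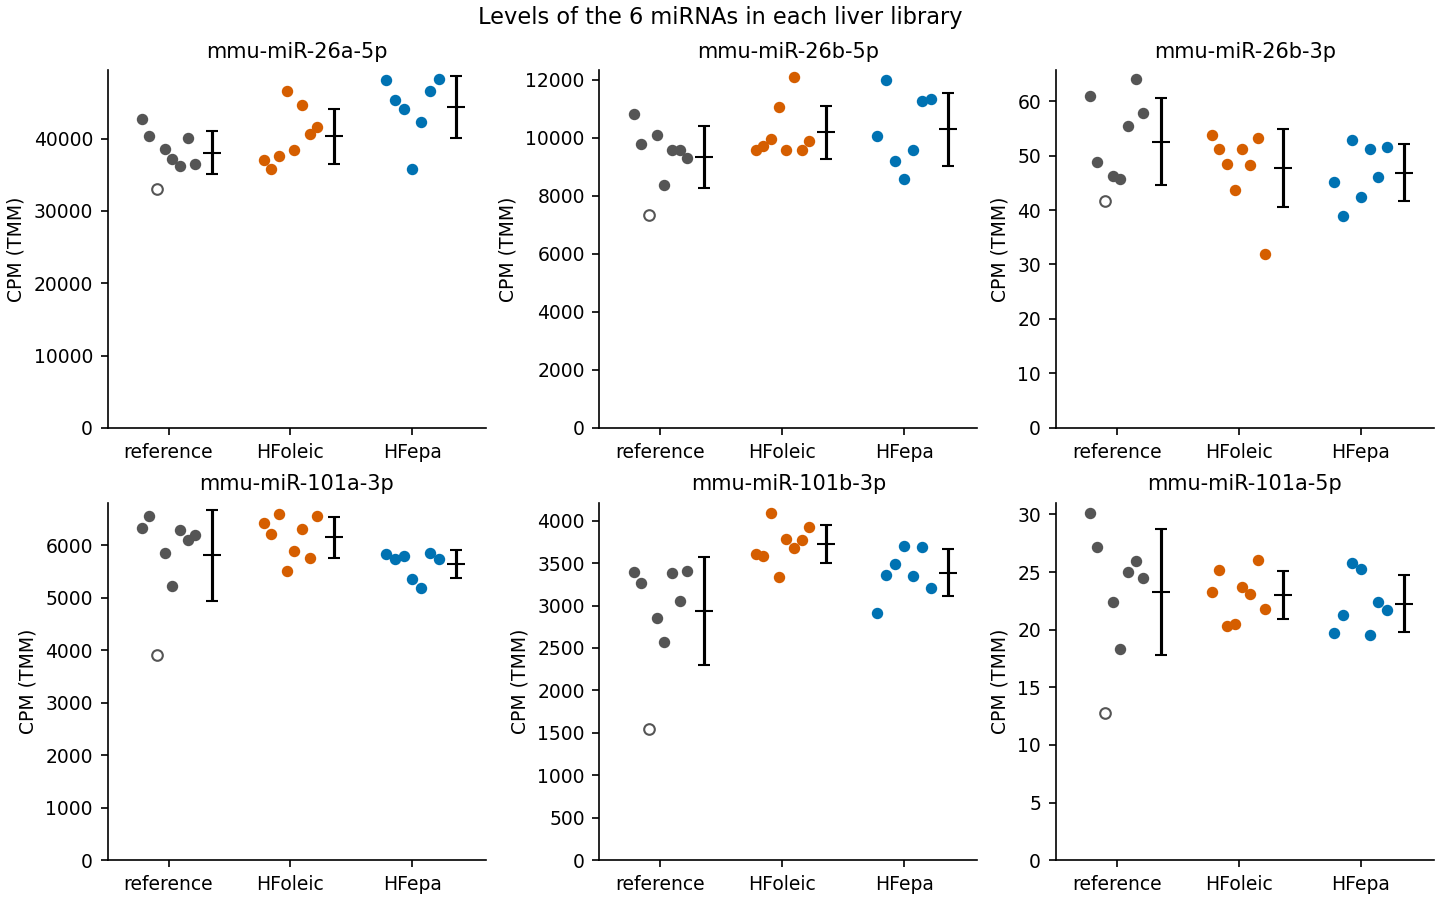
Level of each miRNA (vertical axis, CPM scaled by TMM factors, from 0) in each of the 23 liver libraries, by group (horizontal axis). Points are libraries, the open point is reference library 3, and the bars are the mean ± SD. mmu-miR-101b-3p lay between 3341 and 4087 CPM in HFoleic and between 1543 and 3407 CPM in reference. On this scale library 3, with a TMM factor of 1.257, was the lowest reference library for all 6. As a share of counts it was not the lowest for the miR-26 strands. Library 3 held 4.147% of mmu-miR-26a-5p (reference lowest 3.572%), 0.9213% of mmu-miR-26b-5p (lowest 0.8628%) and 0.005242% of mmu-miR-26b-3p (lowest 0.00471%).

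The comparison of HFoleic with reference asks what the obesogenic diet did in the control lineage. mmu-miR-101b-3p rose and no other member was called. A miRNA was called where edgeR's adjusted p was under 0.05 and the log2 fold change was over 0.25 in either direction, and 12.4% of the 386 tested miRNAs were called here (19 higher and 29 lower). The median log2 fold change was 0.08 over the 6 members and -0.002 over all 386. At an unadjusted p under 0.05, 1 member passed, against 28.5% of all tested miRNAs. That share was not counted for the fit below that leaves out libraries. Without reference libraries 3, 4 and 5, 2 of 390 tested miRNAs were called and 3 members had an unadjusted p under 0.05 (mmu-miR-26b-3p at -0.31, mmu-miR-101a-5p at -0.24 and mmu-miR-101b-3p at 0.14 on the log2 scale), none of them called.

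mmu-miR-101b-3p was read at 1543 CPM at lowest, 3162 at the median and 3407 at highest in reference. In HFoleic it was read at 3341, 3726 and 4087 CPM. Of the 8 HFoleic mice, 7 lay above every reference mouse and all 8 above the reference median, so the groups overlapped by 1 HFoleic mouse. The CPM of the groups separated without overlap for 0% of the 386 miRNAs. The log2 fold change was 0.34 (SE 0.11), a fold of 1.27 with a 95% interval of 1.08 to 1.49 (edgeR, adjusted p = 0.0464, n = 8 and 8). The call rested close to the threshold. It was lost in 14 of 23 fits that each left out 1 library (reference library 1, 4 or 5, HFoleic library 9, 11, 13, 14, 15 or 23, or HFepa library 18, 19, 20, 21 or 22), and also with DESeq2 (adjusted p = 0.0801), with quantile normalization and limma (adjusted p = 0.0916) and with only these 2 groups in the edgeR fit (adjusted p = 0.0942). It was kept without reference library 3, where the log2 fold change was 0.25 and the adjusted p 0.0226 by edgeR. Without reference libraries 3, 4 and 5 it was 0.14 and the adjusted p by edgeR was 0.263, and the part of other tissue in those libraries was not tested. The HFoleic libraries numbered 9 to 11 averaged 3761 CPM and those numbered 12 to 23 averaged 3700 CPM. Both lay above the reference mean of 2935 CPM, which was 3134 CPM without reference library 3. When library numbers 1 to 11 against 12 to 23 entered the fit, the estimate was 0.36 with an adjusted p of 0.415 by edgeR.

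mmu-miR-101a-3p was not called. Its lowest, median and highest levels were 3905, 6153 and 6568 CPM in reference and 5517, 6260 and 6591 CPM in HFoleic. The groups overlapped, with 2 of 8 reference mice below every HFoleic mouse and 1 HFoleic mouse above every reference mouse, and with a log2 fold change of 0.08 and a 95% interval of -0.08 to 0.25 (edgeR, adjusted p = 0.505). mmu-miR-101a-5p, the scarce strand of the same hairpin, was read at 12.8, 24.7 and 30.2 CPM in reference and 20.3, 23.2 and 26.1 CPM in HFoleic, with a log2 fold change of -0.02 (95% interval -0.28 to 0.25).

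The miR-26 strands were not called in HFoleic either. mmu-miR-26a-5p was read at 33010, 37840 and 42650 CPM in reference and 35810, 39540 and 46530 CPM in HFoleic. The log2 fold change was 0.08 (95% interval -0.06 to 0.22), with 2 of 8 HFoleic mice above every reference mouse. mmu-miR-26b-5p was read at 7334, 9573 and 10810 CPM in reference and 9565, 9815 and 12090 CPM in HFoleic, with a log2 fold change of 0.12 (95% interval -0.04 to 0.29). mmu-miR-26b-3p had the opposite sign, at 41.7, 52.1 and 64.1 CPM in reference and 31.9, 49.8 and 53.7 CPM in HFoleic, with a log2 fold change of -0.14 (95% interval -0.37 to 0.09).

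The comparison of HFepa with reference sets the obesogenic diet together with the omega 3 lineage against the low-fat diet in the control lineage. It used the same reference mice, and diet and lineage cannot be told apart in it. No member was called, whereas 15.8% of the 386 miRNAs were (20 higher and 41 lower). mmu-miR-26a-5p passed the p threshold but its fold change was under the limit. The median log2 fold change was 0.05 over the members and -0.06 over all 386. At an unadjusted p under 0.05, 1 member passed, again against 28.5% of all tested miRNAs. The same share was not counted for the fits below that leave out libraries. Leaving out single libraries gave 1 to 3 members, with 3 without reference library 1 and 2 without reference library 3, 6 or 8 or HFepa library 16 or 19. Without reference libraries 3, 4 and 5, 32 of 390 tested miRNAs were called and 3 members had an unadjusted p under 0.05 (mmu-miR-26b-3p at -0.32, mmu-miR-101a-5p at -0.28 and mmu-miR-101a-3p at -0.18 on the log2 scale), none of them called.

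mmu-miR-26a-5p was read at 35820, 45260 and 48250 CPM in HFepa, against 33010, 37840 and 42650 CPM in reference. Of the 7 HFepa mice, 5 lay above every reference mouse, and HFepa library 19 lay below the reference median. The place of library 19 depends on the scaling, as its TMM factor was 1.128. As a share of counts it held 4.04%, above the reference median of 3.936%. The groups overlapped, as did those of all but 4.66% of the tested miRNAs. The log2 fold change was 0.22 (SE 0.07), a fold of 1.17 with a 95% interval of 1.05 to 1.29 (edgeR, adjusted p = 0.0340, n = 7 and 8). Leaving out reference library 1, 2 or 7 or HFepa library 19 brought it over the fold limit, with values up to 0.27. The level also ran with the library number: HFoleic libraries 9 to 11 averaged 36810 CPM and HFoleic libraries 12 to 23 averaged 42370 CPM, beside means of 38050 CPM in reference and 44330 CPM in HFepa. When the library number entered the fit, this estimate was 0.02, and without reference libraries 3, 4 and 5 it was 0.15 (edgeR, adjusted p = 0.228). Library number and group cannot be told apart for these 2 groups.

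mmu-miR-26b-5p, which has the same seed, was read at 8565, 10070 and 12000 CPM in HFepa, with a log2 fold change of 0.14 against reference (95% interval -0.03 to 0.31). mmu-miR-26b-3p was read at 38.9, 46.1 and 52.9 CPM, with a log2 fold change of -0.16 (95% interval -0.40 to 0.07). Neither passed the test.

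mmu-miR-101b-3p was read at 2908, 3355 and 3699 CPM in HFepa, with 3 of 7 mice above every reference mouse. The log2 fold change against reference was 0.21 (95% interval -0.03 to 0.45, adjusted p = 0.253 by edgeR), and it was 0.01 without reference libraries 3, 4 and 5. mmu-miR-101a-3p was read at 5179, 5744 and 5863 CPM in HFepa, all 7 below the reference median, with a log2 fold change of -0.04 (95% interval -0.21 to 0.13). That place depends on the scaling, since as a share of counts HFepa library 19 held 0.6045%, beside a reference median of 0.6042%. mmu-miR-101a-5p was read at 19.5, 21.7 and 25.8 CPM, with a log2 fold change of -0.06 (95% interval -0.34 to 0.21).

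The comparison of HFepa with HFoleic asks what the lineage changed on the obesogenic diet. None of the 6 members passed the test between these groups (lowest adjusted p = 0.865), and edgeR called 0% of the 386 miRNAs. At an unadjusted p under 0.05, 0 members passed, against 5.7% of the tested miRNAs. Without reference library 3, which enters this comparison only through the shared estimate of spread, the filter and the scaling, 3 members had an unadjusted p under 0.05: mmu-miR-26a-5p at 0.13, mmu-miR-101a-3p at -0.13 and mmu-miR-101b-3p at -0.14 on the log2 scale, with a lowest adjusted p of 0.471 by edgeR. The same 3 passed that unadjusted limit without reference libraries 3, 4 and 5, and 1 member did without reference library 1, 5 or 6, HFoleic library 12 or 14 or HFepa library 18, 19 or 20. No member was called in any of these fits. The share of all tested miRNAs that passed the unadjusted limit was not counted in them, so these member counts have no background. The CPM did not separate without overlap for any of the 386 miRNAs (0%). The interval of the difference was narrowest for mmu-miR-26a-5p, with a log2 fold change of 0.14 (95% interval -0.01 to 0.28). It was -0.14 (95% interval -0.38 to 0.10) for mmu-miR-101b-3p and -0.13 (95% interval -0.29 to 0.04) for mmu-miR-101a-3p. In TMM-scaled CPM all 7 HFepa mice lay below the HFoleic median for both, a description that carries no test. As a share of counts, HFepa library 19 lay above the HFoleic median for both. It held 0.4172% for mmu-miR-101b-3p (HFoleic median 0.363%) and 0.6045% for mmu-miR-101a-3p (HFoleic median 0.5944%).

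**Figure D2:**
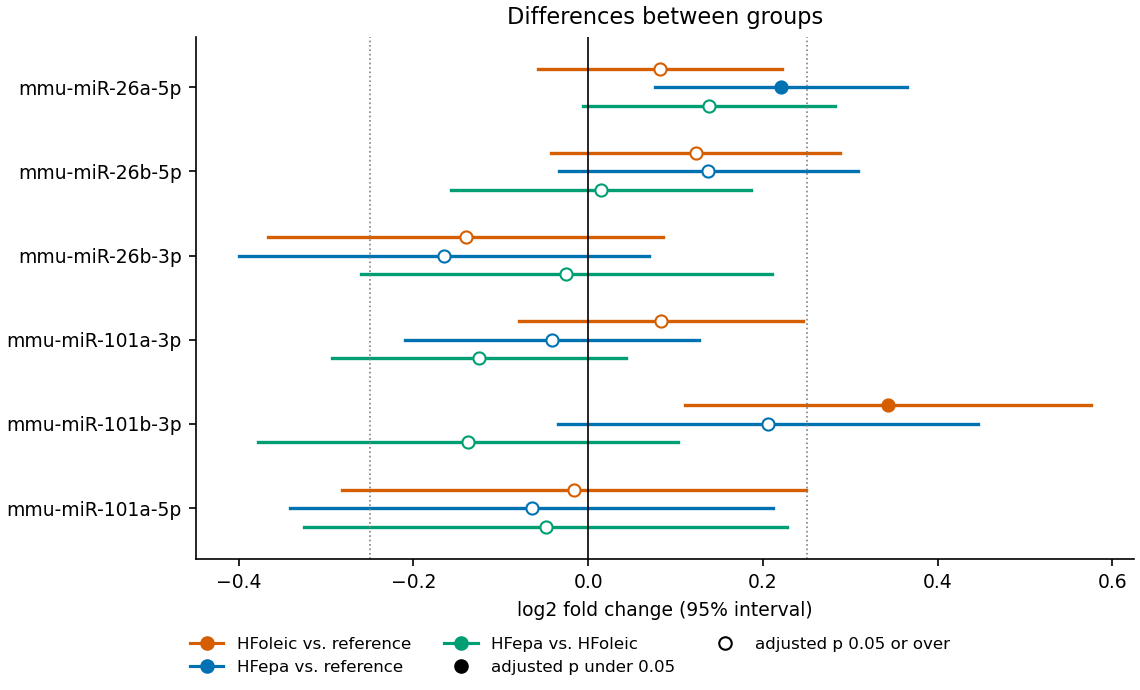
Log2 fold change of each miRNA (horizontal axis) with its 95% interval in the 3 comparisons, from edgeR. Filled points have an adjusted p under 0.05 and dotted lines mark 0.25 in either direction: mmu-miR-101b-3p in HFoleic vs. reference (0.34) lies outside the lines and mmu-miR-26a-5p in HFepa vs. reference (0.22) inside them.

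Because library scaling cancels in a ratio of counts from 1 library, the members were also compared with each other within each library. The mean balance of the miR-101 3p strands was lower in both groups on the obesogenic diet, less securely so in HFepa. mmu-miR-101a-3p over mmu-miR-101b-3p was 2.02 ± 0.225 in reference, 1.66 ± 0.0868 in HFoleic and 1.68 ± 0.182 in HFepa (mean ± SD, n = 8, 8 and 7). In reference it was 1.82 at lowest, 2.01 at the median and 2.53 at highest. In HFoleic it was 1.53, 1.66 and 1.78, so that all 8 HFoleic mice lay below all 8 reference mice. In HFepa it was 1.45, 1.66 and 2.01, and 6 of 7 mice lay below every reference mouse, the exception being HFepa library 16.

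The difference in mean log2 ratio was -0.28 (SE 0.06) for HFoleic vs. reference. By an exact two-sided permutation test over 12870 splits p = 0.000155, the smallest this design can give, and the adjusted p was 0.00186 over the 12 tests on ratios. For HFepa vs. reference the difference was -0.27 (SE 0.08), with an exact permutation p = 0.00295 and an adjusted p = 0.0177. HFepa and HFoleic differed by 0.02 (SE 0.06, exact permutation p = 0.809). Without reference library 3 the first difference was -0.23 and the second -0.22, and the adjusted p-values by the exact permutation test were 0.00186 and 0.0350. Without reference libraries 3, 4 and 5 they were -0.21 and -0.19, with adjusted p-values of 0.00932 and 0.0988 by that test, so the second no longer passed. Among libraries 1 to 11 alone the HFoleic difference was -0.24, and the 3 HFoleic libraries there (1.61 to 1.78) were again below all 8 reference libraries, with an adjusted p of 0.145 by the exact permutation test. The second difference also missed the threshold without HFepa library 19 (-0.23, adjusted exact permutation p = 0.0519). For this second difference, library number and group cannot be told apart. Ratios of miRNA pairs outside the members were not compared, so how often other pairs separate the groups is not known.

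**Figure D3:**
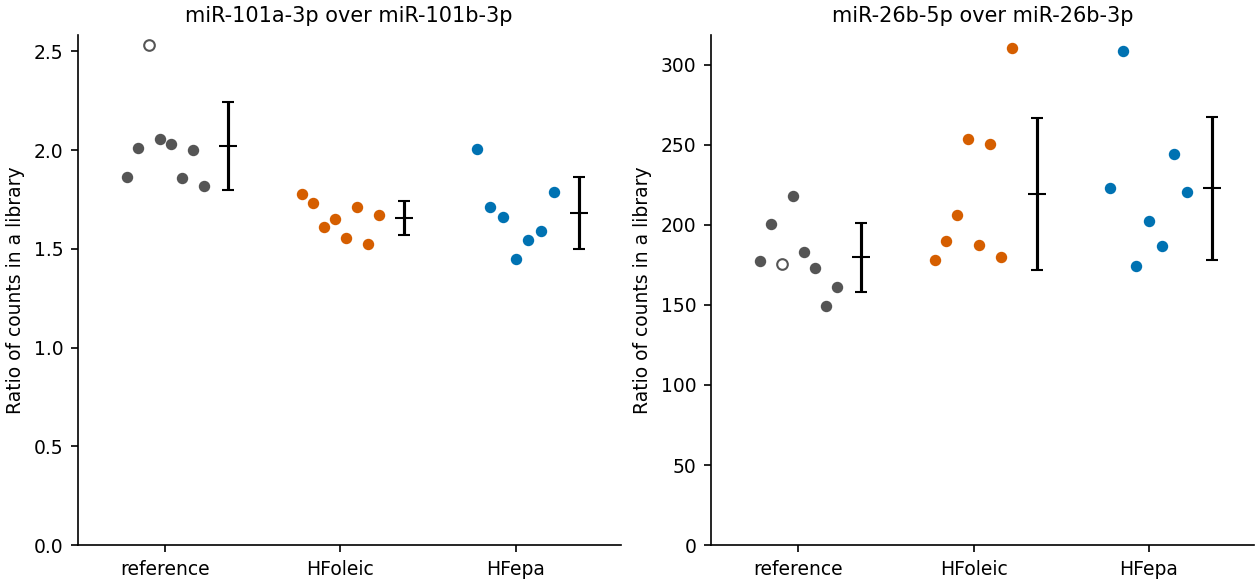
Ratio of counts within each library (vertical axis, from 0) by group, for mmu-miR-101a-3p over mmu-miR-101b-3p on the left and mmu-miR-26b-5p over mmu-miR-26b-3p on the right. Points are libraries, the open point is reference library 3, and the bars are the mean ± SD. On the left, all 8 HFoleic mice (1.53 to 1.78) lie below all 8 reference mice (1.82 to 2.53).

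The balance of the miR-26 strands did not pass after adjustment. mmu-miR-26b-5p over mmu-miR-26b-3p was 150, 177 and 218 at lowest, median and highest in reference, 178, 198 and 311 in HFoleic and 174, 221 and 309 in HFepa. The log2 difference from reference was 0.27 in HFoleic (exact permutation p = 0.0398, adjusted p = 0.0955) and 0.30 in HFepa (exact permutation p = 0.0191, adjusted p = 0.0765). All 8 HFoleic mice and 6 of 7 HFepa mice lay above the reference median. mmu-miR-26a-5p over mmu-miR-26b-5p was 4.09 ± 0.274 in reference, 3.96 ± 0.237 in HFoleic and 4.33 ± 0.365 in HFepa, with the lowest adjusted p, 0.0955, for HFepa vs. HFoleic by the exact permutation test. mmu-miR-101a-3p over mmu-miR-101a-5p was 256 ± 29.7, 270 ± 32.4 and 256 ± 28.5 (mean ± SD in reference, HFoleic and HFepa), and no comparison of it had an exact permutation p below 0.379.

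The hepatocyte miRNA mmu-miR-192-5p was among the 3 miRNAs most like each of the miR-101 3p strands across libraries. The 3 tested miRNAs most like mmu-miR-101b-3p, by Pearson's r of log2 CPM over the 23 libraries among 259 miRNAs with at least 10 CPM, were mmu-miR-192-5p (r = 0.909), mmu-miR-107-3p (r = 0.889) and mmu-miR-101c (r = 0.883). Without reference library 3 these were 0.650, 0.731 and 0.705. For mmu-miR-101a-3p they were mmu-miR-101c (r = 0.890), mmu-miR-192-5p (r = 0.835) and mmu-miR-203b-5p (r = 0.835), and 0.735, 0.481 and 0.510 without that library. mmu-miR-101a-3p and mmu-miR-101b-3p correlated at r = 0.80, and at 0.423 without it. These values describe 23 libraries that share their groups and scaling factors, and library 3 carried much of them.

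**Figure D4:**
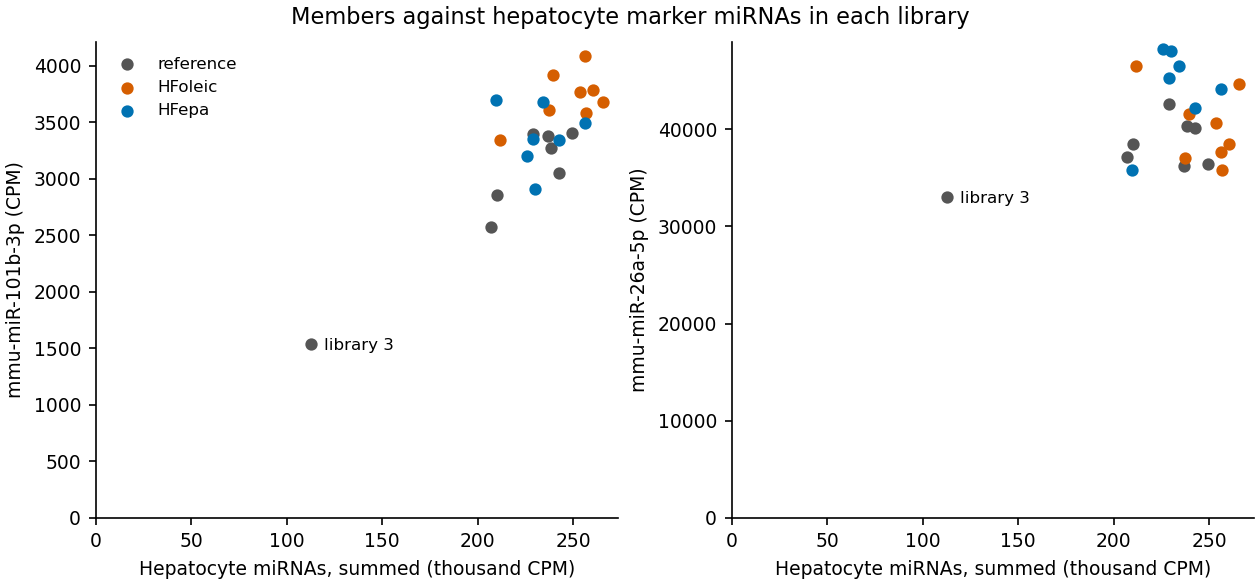
Level of mmu-miR-101b-3p (left) and mmu-miR-26a-5p (right) in CPM against the summed CPM of 3 hepatocyte miRNAs in the same library, with both axes from 0 and 1 point per library. Reference library 3, at 112900 CPM of hepatocyte miRNAs, is lowest on both axes in TMM-scaled CPM. The other 22 libraries lie between 206900 and 265700 CPM of hepatocyte miRNAs. As a share of counts, mmu-miR-26a-5p was 4.147% in library 3, above the reference median of 3.936%, so its low place depends on the scaling.

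Other miRNAs were most like the miR-26 strands. mmu-miR-26a-5p was most like mmu-miR-1948-3p (r = 0.830), mmu-miR-29a-3p (r = 0.816) and the endothelial mmu-miR-126a-3p (r = 0.769), and without reference library 3 these were 0.793, 0.776 and 0.724. mmu-miR-26b-5p was most like mmu-miR-30a-5p (r = 0.778), mmu-miR-26a-5p (r = 0.765) and mmu-let-7g-5p (r = 0.765), and without that library these were 0.652, 0.707 and 0.648. The 2 strands of the Mir26b hairpin did not vary together, with r = -0.007 between mmu-miR-26b-5p and mmu-miR-26b-3p. The scarce strand was instead most like mmu-miR-30c-5p (r = 0.815), mmu-miR-30b-5p (r = 0.779) and mmu-let-7d-3p (r = 0.718). In contrast, the strands of the Mir101a hairpin, mmu-miR-101a-3p and mmu-miR-101a-5p, correlated at r = 0.758, and at 0.452 without reference library 3. mmu-miR-101a-5p was most like mmu-miR-29c-3p (r = 0.798), mmu-miR-203-3p (r = 0.769) and mmu-miR-203b-5p (r = 0.763), which were 0.520, 0.402 and 0.411 without that library.

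Other miRNAs reported to repress Ezh2, 17 on the list and 14 of them tested, did not move as 1 group. In HFoleic vs. reference 0 were called higher and 2 lower, with a median log2 fold change of 0.05 against -0.002 over all tested miRNAs. In HFepa vs. reference 0 were called higher and 2 lower, with a median of 0.08 against -0.06. Over all 386 tested miRNAs, 12.4% were called in the former comparison and 15.8% in the latter. In the latter comparison mmu-miR-25-3p fell by 0.29 and mmu-let-7f-5p, of the let-7 family that restrains growth, fell by 0.44 on the log2 scale (edgeR, adjusted p = 0.00653 and 0.0195). mmu-let-7d-5p had a log2 fold change of 0.21 (edgeR, adjusted p = 0.0340), which was under the fold limit as for mmu-miR-26a-5p, and mmu-miR-30d-5p one of 0.15 (edgeR, adjusted p = 0.0532). In HFoleic vs. reference the calls were mmu-miR-25-3p, which fell by 0.26, and mmu-let-7e-5p, which fell by 0.58.

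Of 13 other miRNAs described as restraining growth in liver, all tested, 1 was called higher and 0 lower in each comparison with reference. It was mmu-miR-125b-5p, higher by 0.87 on the log2 scale in HFoleic (edgeR, adjusted p = 0.0249) and by 1.03 in HFepa (edgeR, adjusted p = 0.00877). Its mean was 592 CPM in reference, 1084 CPM in HFoleic and 1209 CPM in HFepa. The next in order of p were not called in HFepa vs. reference: mmu-miR-148a-3p at -0.26, mmu-miR-29a-3p at 0.17 and mmu-miR-22-3p at 0.17 on the log2 scale. The median over the list was 0.04 in HFoleic and -0.0003 in HFepa. Over all 386 tested miRNAs, 12.4% were called in HFoleic and 15.8% in HFepa.

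Of 13 other miRNAs described in liver insulin signalling or glucose output, 12 were tested. In HFoleic vs. reference 2 were called higher and 1 lower, where 12.4% of all 386 tested miRNAs were called. In HFepa vs. reference none was called in either direction, where 15.8% of all 386 were called. Whether the counts of these lists differ from those shares was not tested. The calls in HFoleic were mmu-miR-33-5p, encoded in the gene of a sterol regulator, at 0.58, mmu-miR-107-3p, known to lower insulin sensitivity, at 0.39, and mmu-miR-181b-5p, which fell by 0.52 on the log2 scale (edgeR, adjusted p = 0.0278, 0.0357 and 0.0278). In HFepa vs. reference mmu-miR-29a-3p had a log2 fold change of 0.17, mmu-miR-33-5p one of 0.45, mmu-miR-181b-5p one of -0.38 and mmu-miR-30a-5p one of 0.18, none with an adjusted p under 0.05. No miRNA of these 3 lists was called between HFepa and HFoleic.

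The marker lists of other cell types were set beside the members for both comparisons with reference. Of all 386 tested miRNAs, 12.4% were called in HFoleic and 15.8% in HFepa, and whether the lists differ from those shares was not tested. None of the 3 hepatocyte miRNAs was called, with a median log2 fold change of 0.08 in HFoleic and 0.06 in HFepa. None of the 3 red blood cell miRNAs or of the 4 stellate cell and fibroblast miRNAs was called, although the log2 fold changes of all 4 of the latter were below 0 in both. Of 5 leukocyte miRNAs, mmu-miR-150-5p of lymphocytes was called lower in both (-0.94 and -1.40), and of 5 biliary miRNAs mmu-miR-429-3p was called lower in HFepa (-1.22). Of 2 endothelial miRNAs, mmu-miR-126a-5p was called higher in HFepa (0.25). The single tested pancreas miRNA, mmu-miR-375-3p (-3.87 and -4.19), and the single tested muscle miRNA, mmu-miR-133a-3p (-2.64 and -2.85), were called lower in both. The summed pancreas list ran from 12.96 to 2021 CPM in reference, highest in library 5, and from 9.473 to 34.11 CPM on the obesogenic diet. The muscle and heart list ran from 1.846 to 214.9 CPM in reference, highest in library 4, and from 1.421 to 12.17 CPM on that diet. Library 3 held the highest biliary sum, as given above. The part of these cells in the members' differences was not tested beyond the values without reference libraries 3, 4 and 5.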

How the data were processed

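Small RNA libraries of 23 mouse livers were grouped by the lineage and diet in their labels. The methods state that the authors trimmed adapters with the FASTX-Toolkit, aligned reads with Bowtie in ncPRO-seq and annotated them against miRBase. The genome is named GRCm38.p6 with mm9 in brackets, which are different builds, and the submitters' processing notes name mm10. The authors deposited raw read counts for 1218 mature miRNAs. How reads matching several miRNAs were counted is not given in the sources used here. Their normalized columns and their own comparisons (fold changes and p-values) were not used.

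The counts were tested with edgeR 4.0.16 in R 4.3.3: filterByExpr by group (386 kept), TMM factors, 1 quasi-likelihood fit of 3 groups and Benjamini-Hochberg adjustment over 386. A call needed a log2 fold change beyond 0.25 in either direction with an adjusted p below 0.05. CPM used TMM-scaled totals. Ratios of counts were compared by exact two-sided permutation tests, with 12 adjusted together. Scripts were tested on simulated data. The members, ratios and lists were chosen with earlier results of these data known. Named were the members, their other strands and paralogs, the 3 miRNAs most like each, neighbours in rank, list miRNAs with the lowest p in HFepa vs. reference, and those called. Alternatives were DESeq2 1.42.0, quantile normalization with limma 3.58.1, other scaling and filters, subsets of libraries and leaving out each library. P-values set a difference between groups against the spread between mice. Library numbers ran with the groups, so a difference that goes with library number is part of what was tested. Counts are reads without molecular identifiers, at 3725432 to 8139344 per library.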

Additional observations from a re-analysis of the deposited data

Results flagged for a closer look

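In 3 cases 1 library lay apart from the rest of its group by Dixon's criterion, which chance alone meets in about 1 in 20 groups, and 30 groups of values were looked at. mmu-miR-101b-3p was read at 1543 CPM in reference library 3, against 2573 CPM or more in the other 7 reference libraries. The log2 ratio of mmu-miR-101a-3p to mmu-miR-101b-3p was 1.34 in the same library, against at most 1.04 in the others. That library had 112900 CPM of hepatocyte miRNAs and 1094 CPM of biliary miRNAs, as given above. mmu-miR-26b-3p was read at 31.9 CPM in HFoleic library 23, against 43.6 CPM or more in the other 7 HFoleic libraries.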

How the results depend on the processing

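The call of mmu-miR-101b-3p in HFoleic vs. reference was lost (0 members called) with DESeq2, quantile normalization with limma, upper-quartile factors, no filter, only the 2 groups compared, the library number (up to 11, or from 12) as a term, libraries 1 to 11 alone, and without reference libraries 3, 4 and 5, a choice made after seeing the data. Leaving out single libraries gave 0 to 1 members called there and 0 to 1 in HFepa vs. reference, where 1 was called also with no fold change threshold. In HFoleic vs. reference the call was lost in 14 of 23 such fits, with log2 fold changes of 0.25 to 0.40. Its direction was kept under all these settings, and the cause of the lost calls was not tested.

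For mmu-miR-101a-3p over mmu-miR-101b-3p, the difference missed the threshold with libraries 1 to 11 alone in HFoleic vs. reference (-0.24, fewer samples) and without reference libraries 3, 4 and 5 in HFepa vs. reference (-0.19), where leaving out single libraries gave -0.31 to -0.22. HFepa vs. HFoleic changed sign around 0 with medians (-0.00030) and over single libraries (-0.029 to 0.050). Over single libraries, mmu-miR-26b-5p over mmu-miR-26b-3p ranged from 0.21 to 0.35 in HFepa vs. reference and -0.057 to 0.10 in HFepa vs. HFoleic (-0.078 with libraries 12 to 23 alone), mmu-miR-101a-3p over mmu-miR-101a-5p from -0.035 to 0.048 in HFepa vs. reference, and mmu-miR-26a-5p over mmu-miR-26b-5p from 0.10 to 0.16 in HFepa vs. HFoleic. The first and the last of these differences passed the threshold in 3 of these fits, without reference library 4, HFepa library 18 or HFepa library 17.

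Sign changes were limited to differences that passed no test. In HFoleic vs. reference they were mmu-miR-26a-5p with libraries 1 to 11 alone (-0.042) and the library-number term (-0.048), mmu-miR-101a-3p without reference libraries 3, 4 and 5 (-0.068), and mmu-miR-101a-5p with quantile normalization (0.086), upper-quartile factors (0.0084) and single libraries left out (-0.10 to 0.045). In HFepa vs. reference they were, with quantile normalization, mmu-miR-26b-3p (0.00074), mmu-miR-101a-3p (0.040) and mmu-miR-101a-5p (0.11), with the library-number term mmu-miR-101a-3p (0.052), and over single libraries mmu-miR-101a-3p (-0.11 to 0.0098) and mmu-miR-101a-5p (-0.15 to 0.019). In HFepa vs. HFoleic they were mmu-miR-26b-5p with at least 10 counts in every library (-0.0053), libraries 12 to 23 alone (-0.015), the library-number term (-0.021), upper-quartile factors (-0.014) and single libraries left out (-0.029 to 0.065), mmu-miR-26b-3p with libraries 12 to 23 alone (0.049), the 2 groups only (0.0045), quantile normalization (0.064), the library-number term (0.039) and single libraries left out (-0.091 to 0.015), and mmu-miR-101a-5p with quantile normalization (0.020). No paired analysis was possible because the labels give no replicate numbers that groups share. Depth limited mmu-miR-101b-5p and mmu-miR-26a-1-3p, with at most 8 and 6 counts in a library.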
